A study of Homo sapiens with 3 samples.

Results

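The chromosome 7 peaks of the DKK-1 ChIP-seq experiment were 798 regions of 8723 in the whole experiment, or 9.15% of them (95% Wilson interval 8.56 to 9.77). They were selected on their position and on the measured peak calls: every region on chromosome 7 that MACS listed for the DKK-1 immunoprecipitate against either of 2 controls was taken, and a region with the same start and end in both lists was counted once. Of the 798 peaks, 226 were called against both controls, 478 against the Mock immunoprecipitate only and 94 against input DNA only. All positions are those of the human genome build hg18.

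The data came from 3 sequencing libraries of DLD-1, an established human colorectal cancer cell line, with 1 library per condition. DLD-1/DKK-1 was the immunoprecipitate from cells that carried a lentiviral, doxycycline-inducible construct for human DKK-1 with a V5 tag, DLD-1/Mock was the immunoprecipitate from cells that carried the empty construct, and the third library was a pool of input DNA that had not been immunoprecipitated. The sources differ on the antibody, which the sample records give as anti-V5 and the study's Methods as an antibody to DKK-1 itself, and the records do not say from which cells the input was pooled. DKK-1 was therefore ectopic and tagged in transduced cells of 1 line, doxycycline was given to transduced cells for DKK-1 expression per the study's Methods, though how long the cells used for ChIP-seq had it is not given in the sources used here, and no difference between libraries has a replicate check.

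DKK-1 is known as a secreted inhibitor that binds the LRP5 and LRP6 co-receptors of Wnt signaling at the cell surface. DLD-1 cells carry a truncated APC protein, so that β-catenin is active in them without a Wnt ligand. In ChIP-seq, chromatin fragments pulled down with an antibody are sequenced, and MACS lists the places where their reads, here called tags, are denser than a control library and a genome-wide background predict. DKK-1 has no known DNA-binding domain, and a peak does not by itself show a bound site.

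Gene starts were examined only for the 3 transcripts that the study's list of specific sites names on chromosome 7, not for other genes. Among them a peak covered only the start of MKLN1, which encodes the intracellular kelch-repeat protein muskelin. This start has a matching entry in a promoter table, so its sequence could be shown. The peak there, from 130662365 to 130663310, was 946 bp wide, held 32 tags and was called against DLD-1/Mock only, and it extended from 770 bp before the annotated transcript start to 176 bp after it. RefSeq gives 2 starts for the gene in the build GRCh38.p14. The one shown lies 168757 bp from the gene's end, 46 bp less than the hg18 transcript length of 168803 bp, whereas the other differs by 217736 bp. The 250 bases before that start, chr7:131327626-131327875 on the plus strand of GRCh38.p14, are printed from 5′ to 3′ with every GGGCGG, the core of the GC box, in capitals.
MKLN1 promoter: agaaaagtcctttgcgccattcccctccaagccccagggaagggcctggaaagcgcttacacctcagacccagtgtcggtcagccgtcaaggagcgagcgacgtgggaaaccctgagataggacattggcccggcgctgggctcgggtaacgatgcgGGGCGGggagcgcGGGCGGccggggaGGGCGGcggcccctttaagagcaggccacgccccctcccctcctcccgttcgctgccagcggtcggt
On either strand the window held 3 matches to GGGCGG and 0 to CTTTGA, the core letters of the TCF motif, and the 2 motifs do not overlap. Of 35116 RefSeq promoter windows, 42.6% held GGGCGG and 11.2% held CTTTGA on either strand. The window had a GC content of 68.4%, against a median of 58% over all promoters. These are matches of letters in one window, read from another build than that of the peak.

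The density of the chromosome 7 peaks differed between the controls. Against DLD-1/Mock, chromosome 7 held 704 of 6631 peaks, or 10.6% of that list (9.90 to 11.4). Against input it held 320 of 5281, or 6.06% (5.45 to 6.74). The Wilson intervals describe the lists and take peaks as separate draws, which neighbouring peaks are not. Over the 155 Mb from the first summit to the last, the densities were 4.53 Mock-called and 2.06 input-called peaks per Mb. The ratio of Mock-called to input-called peaks was 2.2 on chromosome 7 and ranged from 0.618 to 4.5 over the 22 other chromosomes compared, with a median of 1.11. Chromosome 7 ranked second by this ratio, after chromosome 20 with 54 and 12 peaks. On chromosome 9, the nearest in number of peaks with 711 in all, the ratio was 1.86, and on chromosome 10, with 509, it was 1.12. The DKK-1 tags are the same library in both lists, so the excess lies in what each control led MACS to call. The DLD-1/DKK-1, DLD-1/Mock and input libraries held 21312041, 24151009 and 27723787 tags after MACS had removed duplicates. The Mock control was thus the shallower of the 2 controls over the whole genome, and the part of depth in the excess was not tested.

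A smaller share of the Mock-called peaks was also called against input on chromosome 7 than in the whole list. Of the chromosome's 704 peaks against DLD-1/Mock, 226 were also called against input, or 32.1% (28.8 to 35.6), whereas the percentage over the whole list was 48.1%. On the other chromosomes this share ranged from 14.8% to 76.0% with a median of 50.4%, and it was 37.8% on chromosome 9 and 52.4% on chromosome 10. In the other direction, 226 of 320 peaks against input were also called against DLD-1/Mock, or 70.6% (65.4 to 75.3), whereas the whole list gave 60.4%. This second share ranged from 39.3% to 89.2% on the other chromosomes, and the values on chromosome 9, 70.3%, and chromosome 8, 68.4%, were close to that of chromosome 7. Both shares count the same 226 peaks, so they are tied to the ratio of the 2 counts and are not separate from the excess. These shares describe 2 lists that use the same DKK-1 tags, and no test between them was possible with 1 library per condition.

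Every 5 Mb window of the chromosome held at least 1 peak against DLD-1/Mock, but the windows were filled unevenly. The 32 windows, the last of them incomplete, held from 1 to 72 peaks against DLD-1/Mock, with a median of 16, and up to 38 against input, with a median of 4. In 31 windows there were more peaks against DLD-1/Mock than against input, in 1 the counts were equal, and in 0 there were fewer. There were 3 windows without a peak against input. The fullest window lay from 130 to 135 Mb, where the Mock control gave 72 peaks and input 31, followed by 120 to 125 Mb with 54 and 32 and by 125 to 130 Mb with 45 and 23. The emptiest, from 55 to 60 Mb, held 1 peak against DLD-1/Mock, of 22 tags. The widest distance between neighbouring summits, 6.02 Mb from 56087654 to 62106396, lies across the region that holds the centromere of this chromosome. The median distance between neighbouring summits was 71713 bp.

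**Figure D1:**
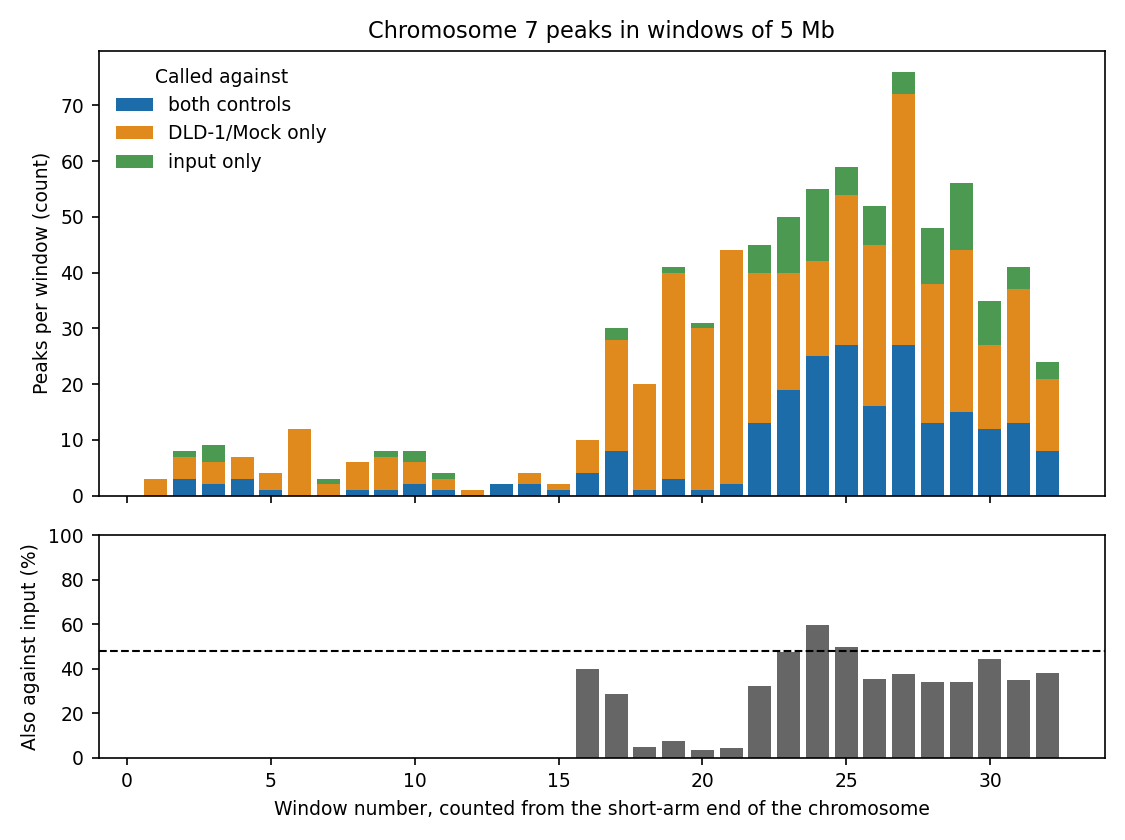
Peaks on chromosome 7 by 5 Mb window, numbered from the short-arm end. The stacked bars of the upper panel count the peaks called against both controls, DLD-1/Mock only and input only, and the lower panel gives the percentage of the peaks against DLD-1/Mock that were also called against input, for windows with at least 10 of them. The dashed line is the 48.1% of the whole list. The bars reach 76 peaks, 72 of them Mock-called, in window 27 from 130 to 135 Mb, while the percentage is 7.5% or less in windows 18 to 21 from 85 to 105 Mb. Window 6, from 25 to 30 Mb, has 12 peaks called against DLD-1/Mock and 0 against input, and so no visible bar.

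Few of the Mock-called peaks from 85 to 105 Mb were shared with input. In that stretch the 4 windows held 20, 40, 30 and 44 Mock-called peaks but 1, 4, 2 and 2 against input. The percentages of the former that were also called against input were 5%, 7.5%, 3.33% and 4.55%. With so few peaks against input these percentages were bound to be low, so they restate the excess of Mock-called peaks. In the other direction, 1 of 1, 3 of 4, 1 of 2 and 2 of 2 input-called peaks were also called against DLD-1/Mock. Across the genome 61 windows held at least 20 peaks against DLD-1/Mock, and their median percentage was 45.5%, with a range from 3.33% to 86.4%. These 4 windows had the lowest values of the 61, and the next, from 90 to 95 Mb on chromosome 9, had 13.3%. Windows with fewer Mock-called peaks were not ranked, among them 25 to 30 Mb on chromosome 7, where 0 of 12 were shared. Chromosome 20, where 14.8% were shared, had no window among the 61. The window with the most peaks against input, from 115 to 120 Mb, lay close by on chromosome 7, where DLD-1/Mock gave 42 and input 38, and there 59.5% of the former were shared.

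For description the chromosome was divided at 80 and 105 Mb, bounds that were chosen after the window counts had been seen. The first 80 Mb held few peaks, with 82 against DLD-1/Mock and 32 relative to input, of which 23 were shared. From 80 to 105 Mb these counts were 162, 19 and 15, with 28, 10 and 8 of them in the window from 80 to 85 Mb. Beyond 105 Mb they were 460, 269 and 188, so that this end of the chromosome held 65.3% of its Mock-called peaks and 84.1% of its input-called ones. The ratio of the 2 counts was 2.56, 8.53 and 1.71 in the 3 segments in this order. The percentage of peaks against DLD-1/Mock that were also called against input was 28.0% (19.5 to 38.6), 9.26% (5.69 to 14.7) and 40.9% (36.5 to 45.4). Inside the middle segment it was 28.6% from 80 to 85 Mb and 7.5% or less in each window from 85 to 105 Mb. In the other direction, 15 of the 19 input-called peaks of the middle segment were also called against DLD-1/Mock.

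The peaks of the middle segment were close in size to the others. They had a median of 16 tags and a median width of 472 bp, between the 15 tags and 457 bp of the first segment and the 17 tags and 490 bp of the last. Of its 162 peaks against DLD-1/Mock, 21 had a fold enrichment of at least 10 and 5 of these 21 were also called against input, beside 25 of 38 beyond 105 Mb, 35 of 68 on the whole chromosome and 66.1% over the whole list. At a P value of 1e-10 or less 4 of 10 were also called against input, beside 20 of 22 beyond 105 Mb, 24 of 32 on the whole chromosome and 82.3% over the whole list. Among its 15 shared peaks, 8 of which lay from 80 to 85 Mb, the fold enrichment was higher against DLD-1/Mock than against input in 14 and lower in 1. Their median quotient was 1.43. The segment was bounded with the counts against these same 2 controls known, so the quotient describes it and is not separate support. Beyond 105 Mb the median quotient was 1.07, with 121 peaks higher against DLD-1/Mock, 27 equal and 40 lower.

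Over the whole chromosome the same direction was seen in the peaks that both controls called. Fold enrichment is a ratio, the tag height of a peak's summit over the height that MACS predicts there. It was higher against DLD-1/Mock in 148 of the 226 shared peaks, or 65.5%, equal in 29 and lower in 49. The quotient of the 2 fold enrichments had a median of 1.07 and a range from 0.746 to 2.42, and the middle 80% of peaks lay between 0.903 and 1.43. On the other chromosomes the fold enrichment was higher against DLD-1/Mock in 1266 of 2963 shared peaks, or 42.7%, with a median quotient of 1. Chromosomes 8 and 9 had the same direction as chromosome 7. On chromosome 9 the fold enrichment was higher against DLD-1/Mock in 131 of 232 shared peaks and lower in 63, with a median quotient of 1.06. On chromosome 8 it was higher in 559 of 1015 and lower in 312, with a median of 1.02. Chromosome 10 did not share this direction, with 76 higher, 45 equal and 74 lower and a median of 1. The peak with the quotient of 2.42 lay from 80998671 to 80999934 and held 50 tags, with a fold enrichment of 9.23 against DLD-1/Mock and 3.82 against input.

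**Figure D2:**
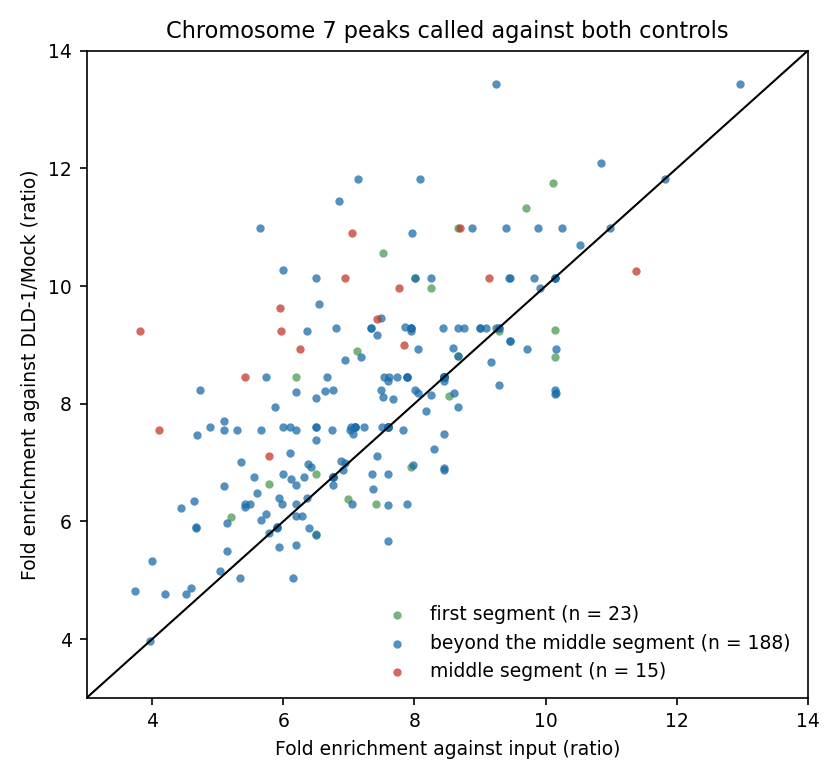
Fold enrichment of the 226 chromosome 7 peaks called against both controls, with the value against DLD-1/Mock on one axis and the value against input on the other. Each point is 1 peak, coloured by the segment divided at 80 and 105 Mb in which it lies, and the diagonal marks equal values. Of the points, 148 lie on the side of DLD-1/Mock, 49 on the side of input and 29 on the line.

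The prediction for a peak is the largest of several, and the lowest it can be is the genome-wide background. For the DLD-1/DKK-1 library this background was 1.18 tags per fragment length of 150 bp, and a fold enrichment that equals a whole number of tags divided by it, within 0.0071 tags, was counted as one for which the control's local tags did not raise the prediction. On chromosome 7 this held for 246 of 704 peaks against DLD-1/Mock, or 34.9%, and for 37.3% on the other chromosomes. Against input it held for 77 of 320 peaks, or 24.1%, whereas the other chromosomes gave 40.4%. From 80 to 105 Mb it held for 60 of 162 peaks against DLD-1/Mock and for 0 of 19 against input, which allows a share of up to 15.8%. On chromosome 7 the local input tags thus set the prediction in a larger share of listed peaks than on the other chromosomes pooled. For DLD-1/Mock the share was close to that of the other chromosomes pooled. The other chromosomes were compared here only as a set, so whether chromosomes 8 and 9 differ from chromosome 7 was not tested. The part of local input coverage in the excess against DLD-1/Mock was not tested, since only regions that passed the threshold are in the lists.

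Most chromosome 7 peaks were small. The 798 peaks had a median of 17 tags, with quartiles of 14 and 21 and a range from 12 to 331. The median on the other chromosomes as a whole was 16 tags. Widths ranged from 240 to 7268 bp with quartiles of 420 and 603 bp, a median of 483 bp and a mean of 565 ± 376 bp (SD), beside a median of 472 bp elsewhere. Peaks called against both controls had a median of 18 tags and 526.5 bp, those against DLD-1/Mock only 16 tags and 478 bp, and those against input only 15 tags and 453.5 bp. The ranges of the 3 classes overlapped, from 12 to 331, 12 to 74 and 12 to 64 tags in this order.

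**Figure D3:**
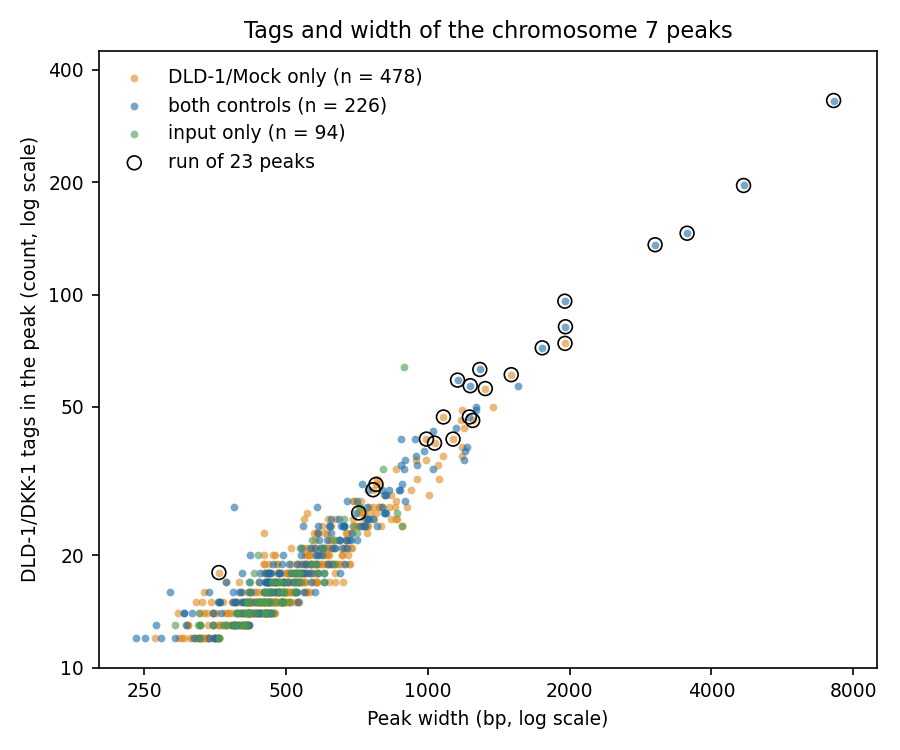
Tags of the DLD-1/DKK-1 library in each chromosome 7 peak against the width of the peak in bp, both on log scales. Each point is 1 of the 798 peaks, coloured by the controls it was called against, and rings mark the run of 23 neighbouring peaks. Tags rise with width, and the peaks above 64 tags, up to 331, are all in the run.

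The calls were weak by the measures that MACS gives. Its score is −10 times the log10 of the P value, and a peak needed a score of 50, which is a P value of 1e-05. Scores on chromosome 7 ranged from 50.09 to 322.41 against DLD-1/Mock, with a median of 58.42, and from 50 to 217.88 against input, with a median of 56.29. The lowest of these are the members just inside the threshold, and regions just outside it are not in the lists. A P value of 1e-10 or less was reached by 32 of the 704 peaks against DLD-1/Mock, or 4.55% (3.24 to 6.35), whereas 3.48% of the whole list did so. Against input 6 of 320 did, or 1.88% (0.862 to 4.03), whereas the whole list gave 2.94%. The false discovery rate, which MACS estimates by exchanging the immunoprecipitate and the control, was 33.5% or more for every chromosome 7 peak against DLD-1/Mock and 65.45% or more for every one against input.

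Fold enrichment gave a similar picture. It ranged from 3.6 to 13.51 against DLD-1/Mock, with a median of 7.6, and from 3.74 to 12.97 against input, with a median of 7.51. At least 10 was reached by 68 of 704 peaks against DLD-1/Mock, or 9.66% (7.69 to 12.1), close to the 9.12% of the whole list. Against input 24 of 320 reached it, or 7.5% (5.09 to 10.9), whereas the whole list gave 9.6%, inside the interval. By this measure the chromosome's share of strongly enriched peaks lay close to that of each list.

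Peaks called against DLD-1/Mock only were not all at the threshold. Of the 478, 33 had a fold enrichment of at least 10, or 6.9% (4.96 to 9.54), close to the 5.96% of all peaks in the series called against DLD-1/Mock only. A P value of 1e-10 or less was reached by 8, or 1.67% (0.850 to 3.27), and by 1.19% over the series. Of these 8, 6 lay from 80 to 105 Mb, which held 147 of the 478. Of the 478, 102, or 21.3%, had a score at or above 64.77, the median of the chromosome's shared peaks. This share was not computed over the series. The upper quartile of the scores of these 478 was 63.46. For peaks called against DLD-1/Mock only on the other chromosomes it was 61.59, beside a median of 60.85 for the shared peaks there. The highest score among the 478, 164.54, belonged to a peak from 100556458 to 100557634 with 46 tags and a fold enrichment of 10.98. The next, from 94375947 to 94377318, held 50 tags, with a score of 139.15 and a fold enrichment of 8.93. Of the 94 peaks called against input only, 7 had a fold enrichment of at least 10. The share over all peaks of the series called against input only was not computed, so this count is a description. The highest score among these 94, 109.89, belonged to the peak from 80800457 to 80801346. It held 64 tags in 890 bp and had a fold enrichment of 9.89.

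The most heavily covered region of the chromosome was a run of 23 peaks from 130208360 to 130297560, a span of 89201 bp, in which each peak lay within 10000 bp of the next. All 23 were called against DLD-1/Mock, 11 of them against input as well and 0 against input only. Together they covered 41973 bp and held 1796 tags, or 42.8 tags per kb covered. Their median was 57 tags, with a range from 18 to 331, whereas the 775 peaks outside the run had a median of 16 tags and a highest value of 64. Peaks wider than 1000 bp numbered 18 of the 23 in the run and 19 of the 775 outside it. Of the 5 chromosome 7 peaks with the highest scores against DLD-1/Mock, 4 were in the run.

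The run's peaks were wide rather than steep. The widest, from 130243963 to 130251230, was 7268 bp long and held 331 tags (exact 95% Poisson interval 296 to 369, for counting error only), with a score of 322.41 and a fold enrichment of 5.98 against DLD-1/Mock and of 217.88 and 5.14 against input. The first, from 130208360 to 130213038, was 4679 bp long and held 196 tags (170 to 225), with a score of 314.77 and a fold enrichment of 5.33 against DLD-1/Mock and of 177.2 and 3.99 against input. The last, from 130294524 to 130297560, held 136 tags in 3037 bp. Fold enrichment in the run had a median of 5.17 against DLD-1/Mock, below the 7.6 of the peaks outside it, and a median of 5.04 against input in the 11 peaks that input called. In 11 of these 11 it was higher against DLD-1/Mock. The false discovery rate against DLD-1/Mock was 100% for all 5 of the peaks with the highest scores.

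**Figure D4:**
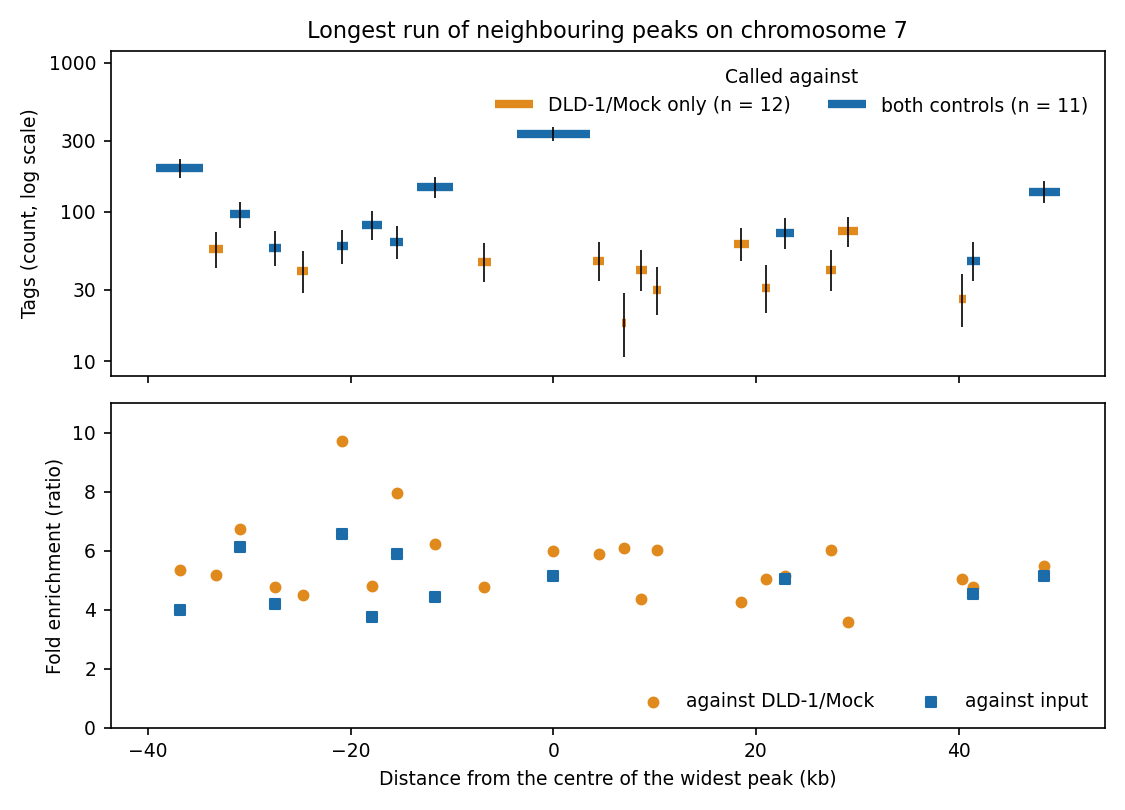
The 23 peaks of the longest run, by distance in kb from the centre of the widest peak. In the upper panel each bar spans a peak's width at the height of its tags (log scale), with exact 95% Poisson intervals, and the lower panel gives the fold enrichment of the same peaks against each control. Tags reach 331 in the widest peak, while fold enrichment stays between 3.6 and 9.7.

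No run of this length was found elsewhere. Peaks at most 10000 bp apart formed 249 runs of 3 or more over the genome, of which 15 lay on chromosome 7 and held 81 of its peaks. The longest run on another chromosome had 13 peaks, and the second longest on chromosome 7 had 7, from 150542286 to 150572871. A run of 6 from 100552666 to 100571372, inside the middle segment, was called against DLD-1/Mock only throughout. The longest run ended 365575 bp before the MKLN1 transcript start, and none of the genes given for chromosome 7 reached it. In the RefSeq order of genes in GRCh38.p14, those that precede MKLN1 include the microRNA genes MIR29A and MIR29B1 and the long non-coding RNA gene LINC-PINT, but the builds differ and no peak was assigned to any of them. Without the run, the fullest window lay from 120 to 125 Mb with 54 peaks against DLD-1/Mock, followed by 130 to 135 Mb with 49.

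The study's list of specific sites had been selected with each control on a fold enrichment of 10 or more, so these values are a description. Chromosome 7 held 11 of its 200 sites, or 5.5% (3.10 to 9.58). They were 4.87% of the chromosome's 226 shared peaks, beside 6.27% over all shared peaks. Of the 11, 1 lay in the first 80 Mb, 1 from 80 to 105 Mb and the other 9 beyond. The 226 shared peaks, from which the sites come, numbered 23, 15 and 188 in these segments, a similar spread. The sites held 12 to 30 tags, with a median of 19, and were 290 to 798 bp wide. Fold enrichment ranged from 10.14 to 13.43 against DLD-1/Mock and from 10.12 to 12.97 against input, was equal in 5 sites, higher against DLD-1/Mock in 5 and lower in 1. By the rule given above, the 5 equal values are whole numbers of tags over the genome-wide background. Neither control's local tags raised the prediction for them, so the equality is that of the background. The site with the highest values lay from 118966483 to 118966901, with 20 tags and fold enrichments of 13.43 and 12.97.

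The threshold of 10 had values close to it on either side. Just inside it was the site from 9482065 to 9482540, with 17 tags and fold enrichments of 11.75 against DLD-1/Mock and 10.12 against input. Just outside were the peaks from 110073276 to 110073927, with 9.96 and 9.91, and from 126147982 to 126148546, with 10.98 and 9.89.

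Genes were given for 3 of the 11 chromosome 7 sites, or 27.3% (9.75 to 56.6), and for 83 of all 200, or 41.5%, which lies inside the interval. They were MKLN1, LOC100131199 and CNTNAP2, all on the plus strand. Muskelin, the product of MKLN1, is a kelch-repeat protein of the CTLH ubiquitin ligase complex. CNTNAP2 encodes a neurexin-family cell adhesion protein known from neurons and is among the longest human genes. LOC100131199, transcript NM_001195278, carries the symbol TMEM178B in RefSeq.

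MKLN1, transcript NM_013255, extends over 168803 bp from 130663135 to 130831937 in 18 exons, and 5 peaks overlapped it, of which all 5 were Mock-called and 3 were input-called. The specific site, from 130749580 to 130750281, overlapped exon 8, 86.8 kb from the start, with 26 tags (17.0 to 38.1) and fold enrichments of 12.09 and 10.84. The peak over the start, whose promoter sequence is printed above, held 32 tags (21.9 to 45.2), with a score of 61.43 and a fold enrichment of 7.02 against DLD-1/Mock and no call against input. The other 3 lay in introns, from 954 to 10123 bp from the nearest exon, with 24, 24 and 19 tags. The 5 tag counts have intervals that overlap one another.

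In the other genes no peak met an exon. LOC100131199 extends over 406147 bp from 140420501 to 140826647 in 4 exons and held 1 peak, the specific site from 140503334 to 140503623. With 12 tags (6.20 to 21.0) it was among the smallest of the chromosome, and its fold enrichment was 10.14 against both controls, among the equal values described above. It lay 83.0 kb from the start and 55237 bp from the nearest exon. CNTNAP2, transcript NM_014141, extends over 2304635 bp from 145444386 to 147749020 in 24 exons and held 13 peaks of 12 to 25 tags.

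CNTNAP2 held more input-called than Mock-called peaks. Of its 13 peaks 8 were called against DLD-1/Mock and 10 against input, with 5 shared, which gave 3.47 and 4.34 peaks per Mb. Its specific site, from 145820965 to 145821631, held 19 tags (11.4 to 29.7) with a fold enrichment of 11.82 against both controls, also among the equal values described above. The 13 peaks lay from 3297 to 280665 bp from the nearest exon, and the closest to the transcript start was 198 kb away. With so few peaks these counts give no order between the controls in this gene.

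**Figure D5:**
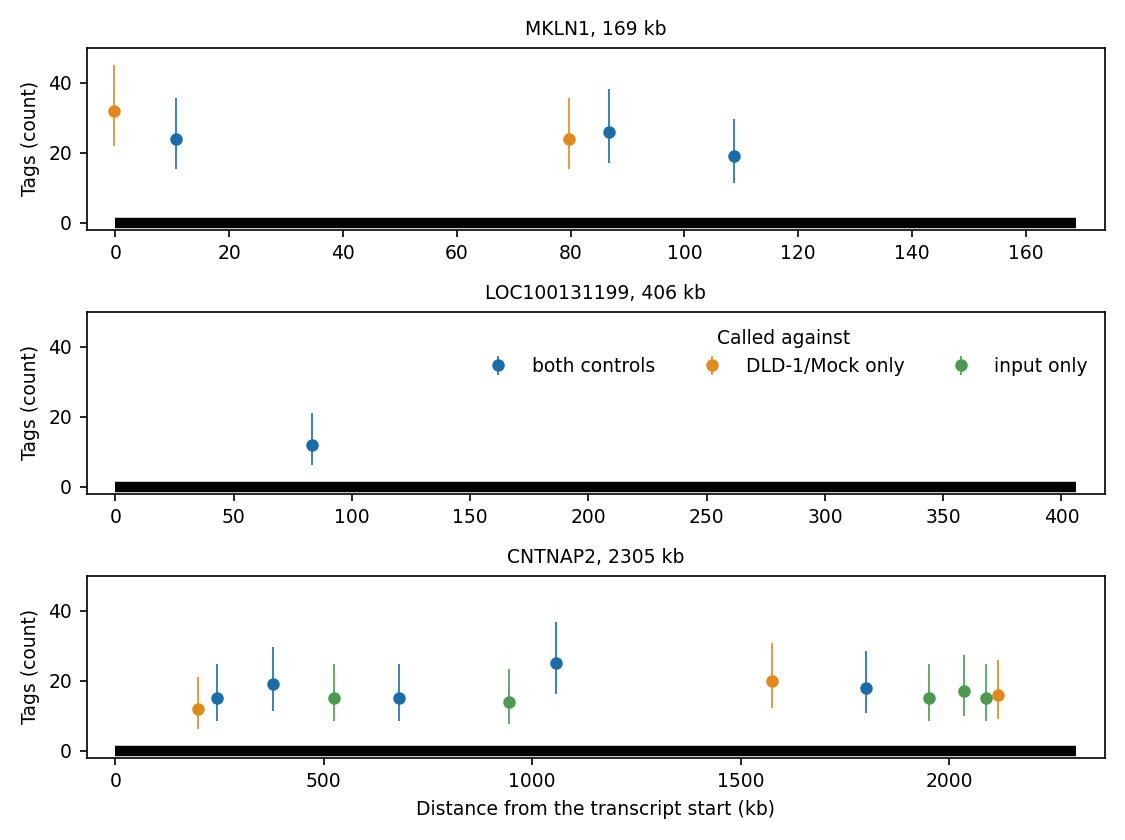
Chromosome 7 peaks in the 3 transcripts that the list of specific sites names, by distance from the transcript start in kb. The black bar is the transcript, points give the tags of the DLD-1/DKK-1 library with exact 95% Poisson intervals, and colours give the controls each peak was called against. MKLN1 holds 5 peaks, the first over its start, LOC100131199 holds 1, and CNTNAP2 holds 13 spread over its length.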

How the data were processed

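The experiment comprised 3 libraries of DLD-1 cells, 1 per condition. Reads of 40 bp were aligned by the authors to hg18 with CASAVA 1.7 and only unique alignments were kept. The deposited lists were made with MACS 1.4.0beta per the file headers, with at most 2 duplicates, a P value cut-off of 1e-05, a 150 bp fragment and an effective genome of 2700000000 bp. They give, as deposited by the authors, tag counts, the −10 log10 P score, the fold enrichment as a ratio and the false discovery rate in percent. The fold and score take their background as the largest of a genome-wide and local estimates, so they depend on control depth. The deposited list of specific sites added transcripts and exons. 

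The 2 lists were joined by exact start and end, assigned to 5 Mb windows by summit, and described with Wilson and exact Poisson intervals with scipy 1.17.1, numpy 2.4.6 and pandas 2.3.3 under Python 3.11.15, and drawn with matplotlib 3.10.9. Counting was tested on simulated lists. The members, gene examples and windows were chosen with earlier results of these data known. Genes named are those of the specific sites on the chromosome, and single peaks named are those with the highest scores, the longest run and the sites nearest the fold threshold. No group test was made, since each condition has 1 library. Chromosome Y was left out of the comparison of chromosomes. Gene positions are those of the deposited list, and RefSeq tables of GRCh38.p14 gave the promoter and gene order only. No hg18 sequence was used here. The alternatives were a fold enrichment of at least 10, a P value of 1e-10 or less, merging of peaks within 1000 bp, a 50% reciprocal overlap, shifted and 10 Mb windows, the widest 1% left out and, chosen after seeing the data, the longest run left out and the middle segment at both stricter thresholds.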

Additional observations from a re-analysis of the deposited data

How the results depend on the processing

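Stricter thresholds thinned the chromosome 7 lists most. At a P value of 1e-10 or less there were 33 peaks in all, 32 with DLD-1/Mock as the control and 6 with input. These were 13.9% and 3.87% of the 2 lists at this threshold, and 5 peaks met it against both controls. The ratio of the counts was then 5.33, the median peak held 38 tags over 993 bp, and 2 specific sites remained. At a fold enrichment of at least 10 there were 81 in all, 68 with DLD-1/Mock as the control and 24 with input, and 11 met it against both controls. The 24 were 4.73% of the input list at this threshold, the ratio was 2.83 and the fullest window held 9 peaks. For the peaks against DLD-1/Mock from 80 to 105 Mb, each threshold was put on DLD-1/Mock only, and any listed call against input counted as shared. Then 23.8% were input-called too at a fold enrichment of at least 10 and 40% at a P value of 1e-10 or less, instead of 9.26%. These shares rest on 21 and 10 peaks. The excess against DLD-1/Mock kept its direction at both thresholds. Of 28 counts, shares and ratios under the alternatives, the other 11 stayed within 1.5 times the reported count or inside its interval, among them those for merging within 1000 bp, reciprocal overlap, shifted and 10 Mb windows and the longest run left out. Outside the stricter P value the median peak held 16 to 18 tags over 479 to 506 bp.

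The depth limits what the lists show: most peaks rest on fewer than 22 tags, only regions past the threshold are listed, and the control tags per peak are not in the lists. A recovery of predicted control tags from score and fold gave whole summit heights, within 0.05 tags, for 84.1% and 85.1% of peaks, under the 90% required, and was not used. No paired analysis was possible because there was a single library for every condition, and nothing here was given by a test.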
